A study of Mus musculus with 2 samples.

Results

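The genes of the major histocompatibility complex (MHC) and of antigen presentation were described in 2 total RNA libraries of mouse adrenal gland. They comprise every gene whose symbol begins with H2-, together with B2m, Cd74, Ciita, Nlrc5, Tap1, Tap2, Tapbp, Psmb8, Psmb9 and Psmb10. This gave 55 of the 55536 GENCODE genes measured, chosen by symbol and not by any measured value. The tissue came from female mice of the F1 hybrid strain B6CASTF1/J at 14 days of age, with no treatment named, and libraries were prepared from 300 ng of RNA plus ERCC spike-ins, synthetic RNAs of known amount. The labels give 1 group of 2 biological replicates, so replicate 2 could only be set against replicate 1. Both libraries share a donor identifier and a description of pooled females, but replicate 2's tissue is labelled as from 1 female. It is thus not settled that the libraries come from separate animals, and any p-value below measures counting noise between these libraries only. The F1 strain carries alleles of its parent strains C57BL/6J and CAST/EiJ, and the tables counted reads against the mm10 assembly without separating alleles; the part of this in the MHC values was not tested.

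MHC class I molecules consist of a heavy chain and the light chain beta-2 microglobulin, and show peptides from inside the cell to CD8 T cells. The proteasome cuts these peptides, the TAP transporter carries them into the endoplasmic reticulum, and tapasin helps load them. MHC class II molecules are pairs of alpha and beta chains that show peptides from endosomes to CD4 T cells, and are made mainly by dendritic cells, macrophages, B cells and thymus epithelium. Most nucleated cells make class I, and interferon-gamma raises both classes. Mouse class I genes comprise the classical H2-K1 and H2-D1 and the many class Ib genes of the Q, T and M regions, several of which have restricted tissues.

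The sequences before the starts of 5 MHC genes, and between those of a neighbouring pair, are shown because elements in this stretch are known to switch class I and class II genes on, and because H2-Q10 differed most between the libraries among members with counts in both. RefSeq (GRCm38.p6) gave the promoters of 38 of the 55 genes, and the 250 bases before each start were searched on both strands. Each line gives bases 5′ to 3′ on the gene's strand, and the last gives the 225 bases between the starts of Psmb9 and Tap1 on the plus strand. Capitals mark the 11-base kappaB stretch of enhancer A and each match to the Y box core ATTGG.
H2-K1 (chr17:34000348-34000597, minus strand): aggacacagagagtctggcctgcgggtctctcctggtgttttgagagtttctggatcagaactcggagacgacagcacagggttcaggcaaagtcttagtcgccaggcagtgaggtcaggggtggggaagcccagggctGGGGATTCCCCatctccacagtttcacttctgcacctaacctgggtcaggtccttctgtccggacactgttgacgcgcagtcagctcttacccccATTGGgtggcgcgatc
H2-D1 (chr17:35262844-35263093, plus strand): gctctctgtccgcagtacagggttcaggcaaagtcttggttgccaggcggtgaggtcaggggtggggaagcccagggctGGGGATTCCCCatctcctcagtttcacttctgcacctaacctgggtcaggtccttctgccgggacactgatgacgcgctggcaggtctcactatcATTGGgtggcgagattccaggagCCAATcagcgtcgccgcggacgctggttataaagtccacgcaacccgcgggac
H2-Q10 (chr17:35469839-35470088, plus strand): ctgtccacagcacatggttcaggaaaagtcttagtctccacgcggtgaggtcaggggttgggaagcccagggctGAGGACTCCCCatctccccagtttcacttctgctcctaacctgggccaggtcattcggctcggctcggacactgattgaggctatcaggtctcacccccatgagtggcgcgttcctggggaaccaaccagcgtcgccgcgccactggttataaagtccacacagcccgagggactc
H2-Aa (chr17:34287824-34288073, minus strand): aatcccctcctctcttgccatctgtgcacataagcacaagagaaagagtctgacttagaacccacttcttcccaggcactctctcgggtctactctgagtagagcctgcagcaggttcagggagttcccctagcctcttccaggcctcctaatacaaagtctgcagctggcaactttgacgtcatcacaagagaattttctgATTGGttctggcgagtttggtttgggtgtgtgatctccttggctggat
H2-Eb1 (chr17:34305617-34305866, plus strand): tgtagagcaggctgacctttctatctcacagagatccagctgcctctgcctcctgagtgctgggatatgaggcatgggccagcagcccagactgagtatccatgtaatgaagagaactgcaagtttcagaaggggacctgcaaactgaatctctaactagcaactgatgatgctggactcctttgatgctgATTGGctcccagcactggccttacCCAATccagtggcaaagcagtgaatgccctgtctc
Psmb9-Tap1 (chr17:34187331-34187555, plus strand): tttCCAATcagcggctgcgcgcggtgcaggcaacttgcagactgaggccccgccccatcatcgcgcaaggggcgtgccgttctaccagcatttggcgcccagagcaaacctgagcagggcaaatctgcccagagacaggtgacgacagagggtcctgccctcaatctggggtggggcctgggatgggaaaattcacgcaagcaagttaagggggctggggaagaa
H2-K1 and H2-D1 carry the same kappaB palindrome, GGGGATTCCCC, at -111 to -101 and at -171 to -161 from the start. At -176 to -166, H2-Q10 has GAGGACTCCCC, which differs from the H2-K1 stretch by G2A and T6C, with positions counted from 1 at the 5′ end and the H2-K1 base first. The exact palindrome stood in 6 of the 27025 promoters in the RefSeq table (0.0222%), of which 3 were H2-K1, H2-D1 and H2-Q6. The Y box core was found in 32 of the 38 members and in 34.5% of all promoters. The interferon response element core TTTCNNTTTC was found in B2m, H2-T22 and H2-T23, and in 3.04% of all promoters. The gamma activated site TTCNNNGAA was found in H2-DMb2, H2-M11, H2-M3 and Psmb8, and in 7.18% of all promoters. No exact match of any of these motifs stood in the 250 bases of H2-Q10. No match of these motifs overlapped a match of another in a member. A match describes letters only, and binding was not measured.

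Of the 55 genes, 50 lie on chromosome 17 between 33915899 and 37483552 (mm10), a span of 3.57 Mb. B2m lies on chromosome 2 (122147686 to 122153083), Cd74 on chromosome 18 (60803848 to 60812652), Ciita on chromosome 16 (10480059 to 10528418), and Nlrc5 (94434356 to 94527272) and Psmb10 (105935735 to 105938444) on chromosome 8. GENCODE classes 44 of them as protein-coding, 4 as polymorphic pseudogenes, 6 as unprocessed pseudogenes and 1 as a transcribed unprocessed pseudogene. H2-Ke6, which encodes a hydroxysteroid dehydrogenase and not an MHC chain, enters through its name and is kept apart from the sums.

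The libraries held 33844950 (replicate 2) and 37586172 (replicate 1) expected counts, of which spike-ins took 0.322% and 0.337%. Markers of adrenal cortex, such as Star and Cyp11a1, and of chromaffin cells were present in both, and all 11 markers tested were lower in replicate 2. Their summed levels were 2436 TPM (replicate 2) and 5711 TPM (replicate 1) for cortex, and 454 and 1017 TPM for chromaffin cells. Replicate 2 stood apart in markers of other tissues. Its 6 hepatocyte markers summed to 17840 TPM, against 307 TPM in replicate 1, and its 6 skeletal muscle markers to 479 TPM, against 22.3 TPM. Its 11 T cell and thymocyte markers summed to 2.33 TPM, against 56.4 TPM in replicate 1. Every comparison below therefore sets libraries of unlike tissue content side by side, and in bulk RNA fewer cells of a type and less RNA per cell cannot be told apart.

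Apart from H2-Ke6, the genes B2m, H2-K1, Tapbp, H2-Q10 and H2-D1 had the highest mean levels. B2m, the class I light chain, had 163 TPM in replicate 2, against 114 TPM in replicate 1, a mean of 138 ± 34.8 TPM (SD, n = 2) at percentile 98.5 of protein-coding genes. H2-K1 averaged 67.1 ± 1.95 TPM, Tapbp 32.7 ± 2.68 TPM, H2-D1 23.97 ± 4.13 TPM and Cd74 19.1 ± 4.30 TPM (SD, n = 2). H2-T23 followed at 18.8 ± 13.9 TPM and Psmb10 at 17.2 ± 1.65 TPM (SD, n = 2). The order of B2m, H2-K1, Tapbp, H2-D1 and Cd74 was the same in both libraries, while H2-D1 and Cd74, Cd74 and H2-T23, and H2-T23 and Psmb10 were neighbours whose ranges of mean ± SD overlapped. H2-Q10, at 53.2 TPM in replicate 2, against 0.80 TPM in replicate 1, was high in replicate 2 alone. Of the 55 genes, 30 reached 1 TPM in at least 1 library and 22 reached it in both. The second transcript table, which the authors made from the reads by another route, brought the number at 1 TPM in either table to 33.

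The 31 class I heavy chain genes summed to 201 TPM in replicate 2, against 124 TPM in replicate 1, a mean of 163 ± 54.0 TPM (SD, n = 2). Without H2-Q10 the sums were 148 and 124 TPM. B2m stood at 0.812 of the heavy chains summed with H2-Q10 in replicate 2 and at 0.915 in replicate 1. Without H2-Q10 the ratios were 1.11 and 0.921, so which library was higher turned on that gene. In the second transcript table the ratios without H2-Q10 were 0.989 and 0.775, with B2m below the heavy chains in both libraries. These sums cover all transcripts of a gene. Retained-intron transcripts held 55.4% and 69.0% of the H2-K1 TPM in the first transcript table, and 40.6% and 48.2% in the second. B2m was not set against protein-coding heavy chain transcripts alone, so whether it lies below the heavy chains is not settled. The 10 class II genes and Cd74 summed to 49.2 and 38.4 TPM, a mean of 43.8 ± 7.69 TPM (SD, n = 2). In the second transcript table, the sums were 290 and 183 TPM for the heavy chains, and 79.0 and 58.9 TPM for class II with Cd74. In the plot of members at 1 TPM or more, most genes had their points close together, and a few class Ib genes lay far apart.

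**Figure D1:**
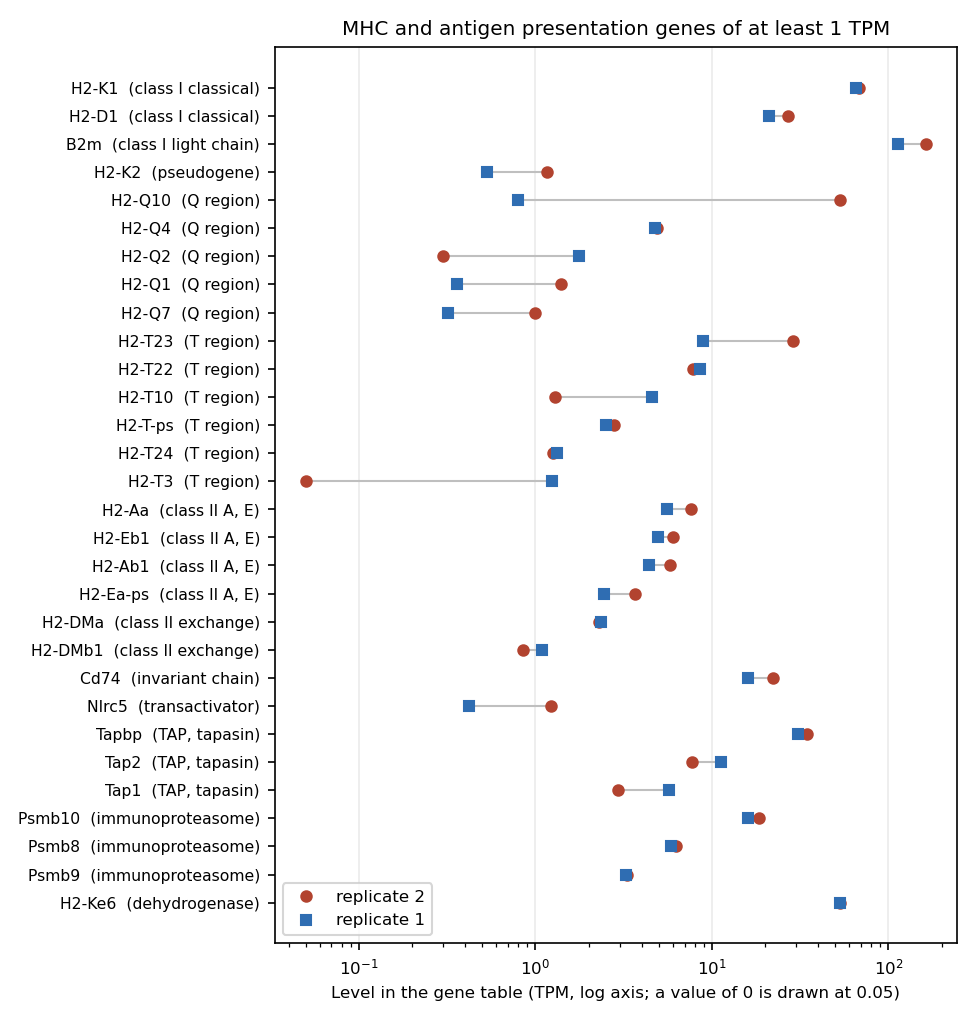
Level in the gene table (TPM, log axis) of the 30 genes that reached 1 TPM in at least 1 library, in replicate 2 (circles) and replicate 1 (squares), ordered by role. B2m and H2-K1 stand highest in both libraries, and H2-Q10 (53.2 and 0.80 TPM) and H2-T3 (0 and 1.25 TPM) have the longest lines between libraries.

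At 12 of the 55 genes the gene table held no count in either library. Up to 3 counts are compatible with a count of 0, or 8.86e-06% of the counts in replicate 2 and 7.98e-06% in replicate 1. These genes were the 7 genes named H2-M10, H2-M1, H2-M11, the pseudogene H2-M6-ps, and the class II pseudogenes H2-Pa and H2-Pb. The second transcript table gave 1 count each to H2-M1 and H2-M10.3 in replicate 1 and to H2-M6-ps in replicate 2. The M10 family is known from the mouse vomeronasal organ, where its products sit beside pheromone receptors. Of the other 4 M region genes, H2-M3, which presents formylated bacterial peptides, had 0.88 TPM in replicate 2, against 0.95 TPM in replicate 1. H2-M9, H2-M5 and H2-M2 had at most 4 counts in a library. Also too low to be tested were H2-Q3, an unprocessed pseudogene, with 0 counts in replicate 2, against 5 in replicate 1, and H2-Bl, a polymorphic pseudogene of the T region, with 11 and 6 counts.

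To compare the libraries, counts were scaled with TMM, which sets the middle of all genes near a difference of 0, and each gene was tested against counting noise with an exact conditional binomial test, adjusted over all genes by the Benjamini-Hochberg method. Of the 55 genes, 34 had the required mean count of at least 20. H2-T3 and H2-Q2 met it through replicate 1 alone, so they had to differ, and they are given below without a p-value. In replicate 2, 23 of these 34 were higher, while 28.5% of the 16155 genes tested were called higher. The 23 include H2-Ke6 (log2 difference 0.45), which is not an MHC chain, and without it 22 of 33 were higher. Lower in replicate 2 were 4 of 34, of which H2-T3 and H2-Q2 were 2, while 24.7% of all genes were. At over 2-fold, 8 of 34 were higher and 3 were lower, against 8.39% and 2.58% of all genes, and without H2-T3 and H2-Q2 the lower gene was H2-T10. The median log2 difference of the 34 was 0.62 (0.63 without H2-Ke6), and that of all genes tested was -0.00. The scaling matters to this count, because total-count scaling moves the median of all genes to -0.34 and spike-in scaling to -0.28. Under total-count scaling, 15 members were higher and 5 lower, while 14% of all genes were called higher and 58.3% lower. Under spike-in scaling, 17 were higher and 5 lower, while 15.7% of all genes were called higher and 52.8% lower. The median member stood 0.62 above the median gene, a gap that no count scaling can change, since each shifts all genes alike, and 0.41 above it on log2(TPM + 1).

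**Figure D2:**
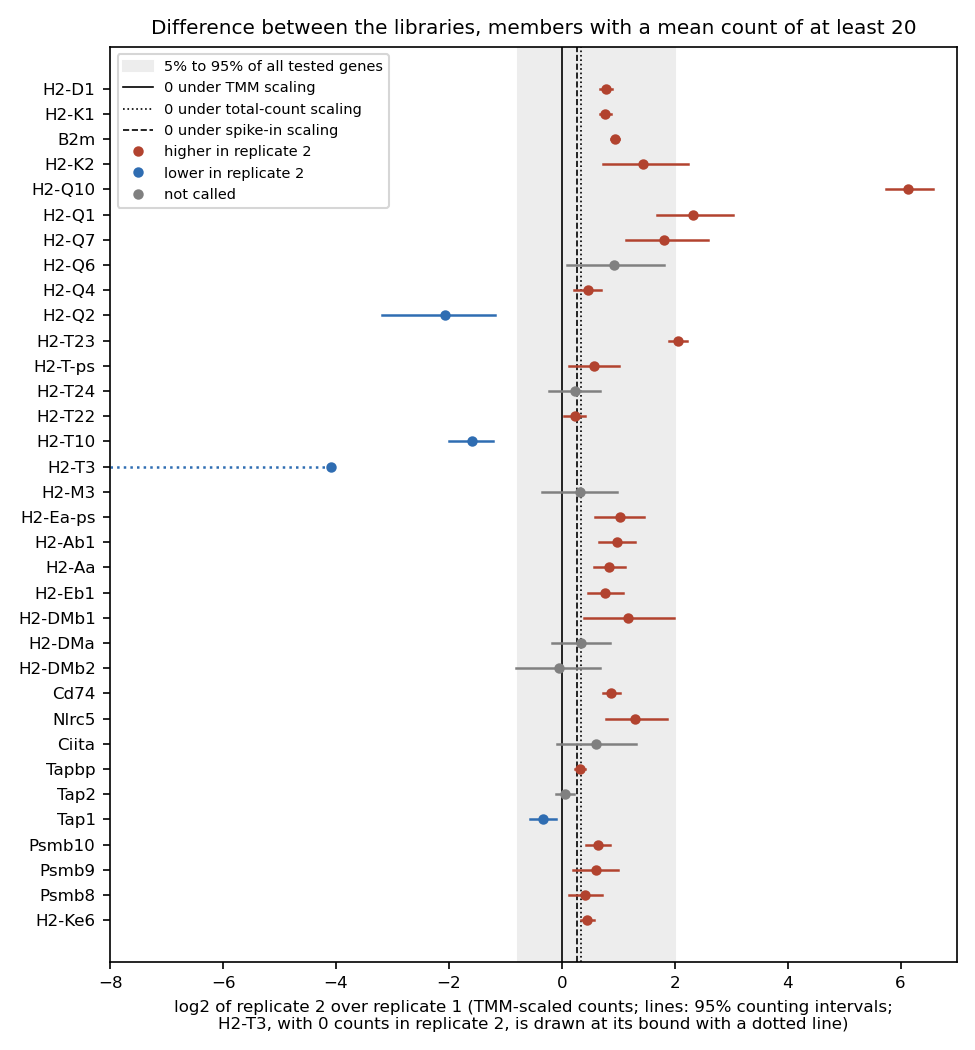
Log2 of replicate 2 over replicate 1 for the 34 genes whose mean count reached 20, ordered by role, with lines for the 95% counting interval and grey from the 5% to the 95% point of the 16155 genes tested. Most points lie between 0 and 1, H2-Q10 lies at 6.13, and H2-Q2, H2-T10 and H2-T3 lie far on the other side; the dotted and dashed lines mark where 0 falls under total-count and spike-in scaling.

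The classical class I genes were both higher in replicate 2. H2-K1 had 1850 counts in replicate 2, against 1523 in replicate 1, a log2 difference of 0.77, and H2-D1 had 1631 and 1336 counts, a log2 difference of 0.78. B2m had 4092 and 2997 counts, a log2 difference of 0.94 (exact binomial test, adjusted p = 1.19e-162). The 3 genes kept that direction under every count scaling tried. In TPM the H2-K1 libraries lay closer than in counts, at 68.5 TPM in replicate 2, against 65.7 TPM in replicate 1. H2-K2, annotated as a transcribed pseudogene beside H2-K1, had 1.16 and 0.53 TPM, and was higher in replicate 2 (log2 difference 1.45).

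Among the members with counts in both libraries, H2-Q10 differed most. It encodes a secreted class Ib molecule known in the mouse as a product of the liver. It had 2524 counts in replicate 2, against 50 counts in replicate 1, a 70.9-fold difference (95% Clopper-Pearson interval 53.6 to 95.8). In the second transcript table it had 70.4 TPM in replicate 2, against 2.04 TPM in replicate 1, and its log2 difference in counts was 4.76. The hepatocyte markers moved with it. All 6 of 6 were higher in replicate 2 (median log2 difference 6.32, against 6.13 for H2-Q10), none was at 0, and Alb, the serum albumin gene, had 10582 TPM in replicate 2, against 189 TPM in replicate 1. Kupffer cell markers, of liver macrophages, summed to 19.3 and 0.74 TPM, and 5 of 5 were higher. Summed over the list, these 5 held 1108 counts in replicate 2, against 51 in replicate 1. Most therefore met the count minimum of the tests through replicate 2 alone, so their direction was largely fixed in advance. The part of these in the H2-Q10 value was not tested.

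The other Q region genes were low and moved in different directions. H2-Q1 had 90 counts in replicate 2, against 25 in replicate 1 (log2 difference 2.32), and H2-Q7, of the Qa-2 antigen, had 61 and 24 counts (log2 difference 1.82). The second transcript table gave H2-Q7 127 and 109 counts, a smaller log2 difference of 0.81. H2-Q2 went the other way, with 11 counts in replicate 2, against 67 in replicate 1 (log2 difference -2.06). H2-Q4 had 4.89 and 4.78 TPM, higher in replicate 2 under TMM (log2 difference 0.46) and not called under total-count or spike-in scaling. H2-Q6 had 30 and 22 counts and was not called (adjusted p = 0.052, exact binomial test), but was called higher in the second transcript table (log2 difference 1.03, adjusted p = 0.0087, exact binomial test). H2-Q5, a polymorphic pseudogene, had 11 counts in replicate 2, against 13 in replicate 1, or 0.69 and 0.58 TPM, and was too low to be tested. In the second transcript table it had 0.903 and 1.06 TPM. The Q region genes share much sequence. Of the 31-base words in the transcripts of H2-Q5, 57.8% also occur in other genes, and the same holds for 50.3% in H2-Q6, 39.1% in H2-Q7, 38.4% in H2-Q4, 32.2% in H2-Q2, 30.3% in H2-Q10 and 23.7% in H2-Q1. H2-Q10 shares 21.9% of its words with H2-Q7, so the authors' counting could divide reads between them, and the smaller counts are uncertain.

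In the T region, H2-T23 was higher in replicate 2 and H2-T10 and H2-T3 were lower. H2-T23 encodes Qa-1, which presents leader peptides of other class I chains to a receptor of natural killer cells. It had 1330 counts in replicate 2, against 450 in replicate 1, a 4.15-fold difference (95% interval 3.73 to 4.63; adjusted p = 2.49e-175, exact binomial test). In the second transcript table it had 44.1 and 13.9 TPM. H2-T23 shares 24.5% of its words with other genes.

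H2-T3 encodes the thymus leukaemia antigen, known from thymocytes of some strains and from gut epithelium. It had 0 counts in replicate 2, against 72 in replicate 1, at least 17.1-fold lower in replicate 2 against a floor of 3 counts there. The second transcript table gave it 0.107 TPM in replicate 2, against 2.37 TPM in replicate 1. All 11 of 11 T cell and thymocyte markers were lower in replicate 2 (median log2 difference -4.79), and none was at 0. Summed over the list, they held 103 counts in replicate 2, against 5147 in replicate 1. Most therefore met the count minimum through replicate 1 alone, so their direction was largely fixed in advance. Among thymus epithelium markers, Prss16, a thymus-specific protease, had 0 counts in replicate 2, against 49 in replicate 1, and Foxn1, the master regulator of thymus epithelium, had 2 and 14. The 7 markers on that list were split, with 2 higher, 2 lower and 3 too low to be tested. They summed to 18.5 TPM in replicate 2, against 7.69 TPM in replicate 1, of which Krt8, a keratin also made in liver, gave 13.6 and 0.82 TPM. The part of these in the H2-T3 value was not tested. Only 4.12% of the words of H2-T3, read along the transcript strand, occur elsewhere.

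H2-T10 and H2-T22 encode related class Ib molecules that gamma-delta T cells can recognise and that are known to hold no peptide. H2-T10 had 69 counts in replicate 2, against 295 in replicate 1 (log2 difference -1.60, adjusted p = 4.81e-19, exact binomial test). H2-T22 had 425 and 511 counts, a log2 difference of 0.22 under TMM that turned to -0.11 under total-count scaling and to -0.050 under spike-in scaling. The genes share 1662 words, 47.6% of those of H2-T10 and 47.2% of those of H2-T22, so reads could be divided between them. H2-T10 is annotated as a polymorphic pseudogene. H2-T24 (79 and 95 counts) was not called, and H2-T-ps (89 and 84 counts) was higher in replicate 2 under TMM, with an adjusted p of 0.023 by the exact binomial test, and was not called under total-count or spike-in scaling.

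Class II transcripts were present at lower level than class I, and their main chains were all higher in replicate 2. H2-Aa had 7.57 TPM in replicate 2, against 5.56 TPM in replicate 1, H2-Ab1 5.80 and 4.41 TPM, and H2-Eb1 6.05 and 4.92 TPM. Cd74, the invariant chain that fills the class II groove until it reaches endosomes, had 22.2 and 16.1 TPM. The 4 genes were higher in replicate 2 by 0.84, 0.98, 0.77 and 0.88 on the log2 scale under TMM, and kept this call under total-count and spike-in scaling. In the gene table the ratios between these genes lay close in both libraries. Cd74 stood at 2.93 times H2-Aa in replicate 2 and at 2.89 times in replicate 1 (mean log2 ratio 1.54 ± 0.01, SD, n = 2). H2-Aa stood at 1.31 and 1.26 times H2-Ab1, and H2-Eb1 at 1.04 and 1.12 times H2-Ab1. In the second transcript table, H2-Aa stood at 0.916 times H2-Ab1 in replicate 2 and at 1.00 times in replicate 1. H2-Eb1 stood there at 0.745 and 0.746 times H2-Ab1, so the order of these chains was not settled. Cd74 stood there at 2.57 and 2.25 times H2-Aa. Over protein-coding transcripts the libraries lay further apart, with H2-Aa at 1.35 and 1.67 times H2-Ab1 in the first transcript table and at 1.31 and 2.08 times in the second.

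The E alpha gene of H2-b strains such as C57BL/6 lacks part of its promoter, and the reference annotates it as the polymorphic pseudogene H2-Ea-ps. H2-Ea-ps had 113 counts in replicate 2, against 78 in replicate 1, or 3.66 and 2.44 TPM, and was higher in replicate 2 (log2 difference 1.02). None of its words, read along the transcript strand, occurs in another gene. H2-Eb2 had 1 count in replicate 2, against 3 in replicate 1.

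The genes of peptide exchange were low. H2-DM takes the invariant chain fragment out of class II, and H2-O holds H2-DM back in B cells. H2-DMa had 2.28 TPM in replicate 2, against 2.35 TPM in replicate 1 and was not called. H2-DMb1 had 37 and 23 counts, higher in replicate 2 under TMM (log2 difference 1.16), but 0.85 and 1.09 TPM, the other order, and H2-DMb2 had 28 and 41 counts and was not called. The DMb genes share 517 words, 31.4% of those of H2-DMb1 and 29.7% of those of H2-DMb2. H2-Oa (3 and 8 counts) and H2-Ob (10 and 16 counts) were too low to be tested.

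The markers of the cells that make class II gave different values. Of the macrophage markers, 8 of 9 tested were higher in replicate 2 under TMM (median log2 difference 0.76) and none was at 0. Under total-count scaling 7 of 9 were higher (median 0.42). Of all genes, 28.5% were called higher under TMM, and 14% higher and 58.3% lower under total-count scaling. The summed level of the macrophage markers was 53.5 TPM in replicate 2, against 38.3 TPM in replicate 1. Of the B cell markers, 0 of 5 tested were called in either direction under TMM and 1 was called lower under total-count scaling, and their sums were 3.95 and 4.93 TPM. Of 9 dendritic cell markers, 1 had the counts to be tested, not called under TMM and lower under total-count scaling, and the sums were 5.47 and 7.06 TPM. The part of these cells in the class II values was not tested. In the plot of markers beside members, the class II, macrophage, dendritic cell, B cell and endothelium sums all have short lines. Replicate 2 is higher for class II and macrophages, and replicate 1 for dendritic cells, B cells and endothelium. The hepatocyte, muscle and T cell lines are far longer.

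**Figure D3:**
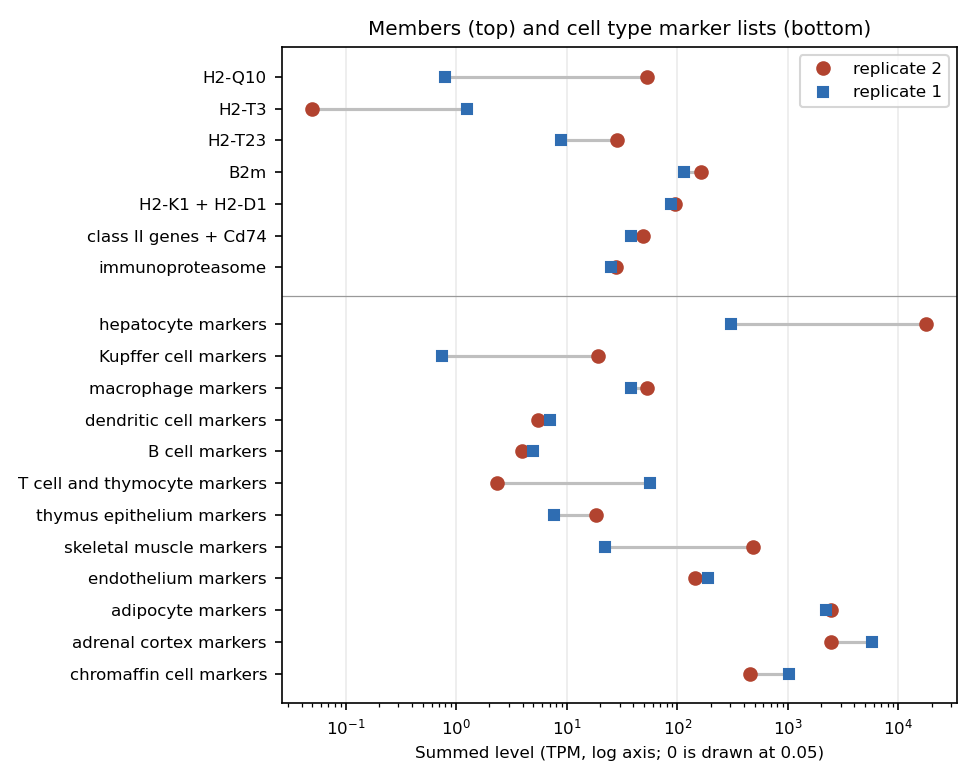
Summed level (TPM, log axis) of MHC genes or groups above the line and of the cell type marker lists below it, in replicate 2 (circles) and replicate 1 (squares). H2-Q10 and the hepatocyte markers lie to the right in replicate 2, H2-T3 and the T cell and thymocyte markers to the right in replicate 1, and class II with Cd74 (49.2 and 38.4 TPM) and the macrophage markers (53.5 and 38.3 TPM) lie close together. The dendritic cell, B cell and endothelium lines are also short, with replicate 1 to the right.

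The transactivators were at low level. Ciita, the switch of class II genes, had 38 counts in replicate 2, against 35 in replicate 1, or 0.25 and 0.27 TPM, and was not called. Nlrc5, its relative for class I genes, had 83 and 47 counts, or 1.22 and 0.42 TPM, and was higher in replicate 2 (log2 difference 1.30, adjusted p = 2.03e-06, exact binomial test). In the second transcript table Nlrc5 had 0.608 and 0.452 TPM, so the gap in level was smaller there. Of the 7 factors that bind class II promoters, Rfxank, Nfya and Nfyb were higher in replicate 2, Rfx5 was lower, and 3 were not called, with a median log2 difference of 0.03. Under total-count scaling 1 was higher and 4 were lower, where 14% of all genes were called higher and 58.3% lower. Nfya, at 0.29, lies within the 0.34 by which total-count scaling lowers every difference.

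Of the genes that make and load class I peptides, the TAP transporter subunits were not higher in replicate 2. Tap1 had 248 counts in replicate 2, against 440 in replicate 1, lower in replicate 2 (log2 difference -0.34, adjusted p = 0.00792, exact binomial test). Tap2 had 591 and 801 counts, a log2 difference of 0.05 that was not called under TMM (adjusted p = 0.627, exact binomial test) and turned to -0.29 under total-count and -0.22 under spike-in scaling, where it was called lower. Tapbp, which encodes tapasin, had 2243 and 2517 counts, higher in replicate 2 under TMM (log2 difference 0.32), and was not called under those scalings (-0.015 and 0.049). Tapbp stood at 11.7 times Tap1 in replicate 2 and at 5.39 times in replicate 1. The differences between these genes and the heavy chains were not tested.

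All 6 loading chaperones were higher in replicate 2 under TMM, with a median log2 difference of 0.35, where 28.5% of all genes were called higher. Under total-count scaling 2 were higher and 3 lower (median 0.01), where 14% of all genes were called higher and 58.3% lower. Under spike-in scaling 3 were higher and 2 lower (median 0.07), where 15.7% of all genes were called higher and 52.8% lower. Calr, Canx, Pdia3 and Hspa5 had fewer TPM in replicate 2. Calr, calreticulin, had 147 TPM in replicate 2, against 155 TPM in replicate 1, a log2 difference of 0.40. Tapbpl, a relative of tapasin that edits peptides, had 4.24 and 3.80 TPM (0.58), and Erap1, which trims peptides, 15.9 and 15.6 TPM (0.50).

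The immunoproteasome replaces the catalytic subunits Psmb5, Psmb6 and Psmb7 with Psmb8, Psmb9 and Psmb10. Psmb10 had 18.4 TPM in replicate 2, against 16.0 TPM in replicate 1, Psmb8 6.28 and 5.86 TPM, and Psmb9 3.32 and 3.25 TPM. All 3 were higher in replicate 2 under TMM (log2 differences 0.63, 0.42 and 0.60), but Psmb8 and Psmb9 were not called under total-count or spike-in scaling. Each stood below its standard counterpart in both libraries. Psmb8 was 8.62-fold below Psmb5 in replicate 2 and 12.7-fold below it in replicate 1. Psmb9 was 19.0- and 22.3-fold below Psmb6, and Psmb10 3.50- and 4.85-fold below Psmb7. These levels cover all transcripts of a gene. Protein-coding transcripts held 29.3% and 26.9% of the Psmb10 TPM in the first transcript table, and 37.0% and 23.4% in the second. For Psmb8 these shares were 59.8% and 41.5%, then 94.6% and 69.6%, and for Psmb9 70.5% and 66.8%, then 89.3% and 65.2%. Of the PA28 activator, Psme2 was higher (0.51), Psme3 lower (-0.16) and Psme1 not called (-0.05) under TMM. Psmb11, the subunit found in thymus epithelium, had 0 counts in replicate 2, against 21 in replicate 1.

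Genes of interferon signalling and response, which act upstream of many MHC genes, gave a mixed count. Of 18 tested, 7 were higher in replicate 2, 1 was lower and 10 were not called under TMM, with a median log2 difference of 0.21, where 28.5% of all genes were called higher and 24.7% lower. Under total-count scaling 3 were higher and 8 lower, with a median of -0.13. There 14% of all genes were called higher and 58.3% lower, with a median of -0.34. Under spike-in scaling 3 were higher and 7 lower, with a median of -0.066. There 15.7% of all genes were called higher and 52.8% lower, with a median of -0.28. The 20 genes of the list summed to 128 TPM in replicate 2, against 156 TPM in replicate 1. Stat2 (0.78), Igtp (0.84) and Irf1 (0.47), the last a direct activator of class I genes, were among those higher under TMM. Irf8, a factor of myeloid and B cells, was the 1 lower under TMM (-0.61). Ifng itself had 0 counts in both libraries. Of class II antigen proteases, Ctss (0.85), Ctsl (0.52) and, within that shift of 0.34, Ctsb (0.19) were higher under TMM, and Ctsd, Lgmn and Ifi30 were not called. Under total-count scaling 2 of these 6 were higher and 3 lower, beside 14% and 58.3% of all genes.

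Transcripts within the genes were unevenly filled, and total RNA holds unspliced and partly spliced molecules. At H2-K1, a 457-base transcript with a retained intron, H2-K1-215, held 51.1% of the gene's TPM in replicate 2 and 64.3% in replicate 1. In the second transcript table its shares were 36.8% and 45.2%. All retained-intron transcripts of H2-K1 together held 55.4% and 69.0% in the first table, and 40.6% and 48.2% in the second. At H2-D1 they held 4.98% and 4.18% in the first table. H2-K1 stood at 2.55 times H2-D1 in replicate 2 and at 3.12 times in replicate 1 over all transcripts, but at 1.19 and 0.99 times over protein-coding transcripts. In the second table the protein-coding ratio was 1.66 and 1.68.

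Tap2 was split in the same way. Its retained-intron transcript Tap2-202 held 74.8% of the gene's TPM in replicate 2 and 70.5% in replicate 1, and 40.8% and 41.0% in the second table. Over all transcripts Tap1 stood at 0.385 and 0.504 times Tap2, and over protein-coding transcripts at 1.33 and 1.21 times in the first table but at 0.368 and 0.438 times in the second. At H2-Eb1, a transcript classed for nonsense-mediated decay, H2-Eb1-205, held 68.8% and 59.2%. At Cd74, the short form Cd74-201 held 70.2% and 68.4% and the longer Cd74-202 held 29.8% and 31.6%, and the second table gave 69.3% and 69.3% for the short form. At Tapbp the tables disagreed on the leading transcript, with Tapbp-201 at 16.1% and 18.0% in the first and 67.6% and 64.6% in the second. Nearly all of H2-Q10 in replicate 2 was the protein-coding H2-Q10-201 (97.7%, against 78.0% in replicate 1), while 68% of the H2-T3 TPM in replicate 1 was in retained-intron transcripts.

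**Figure D4:**
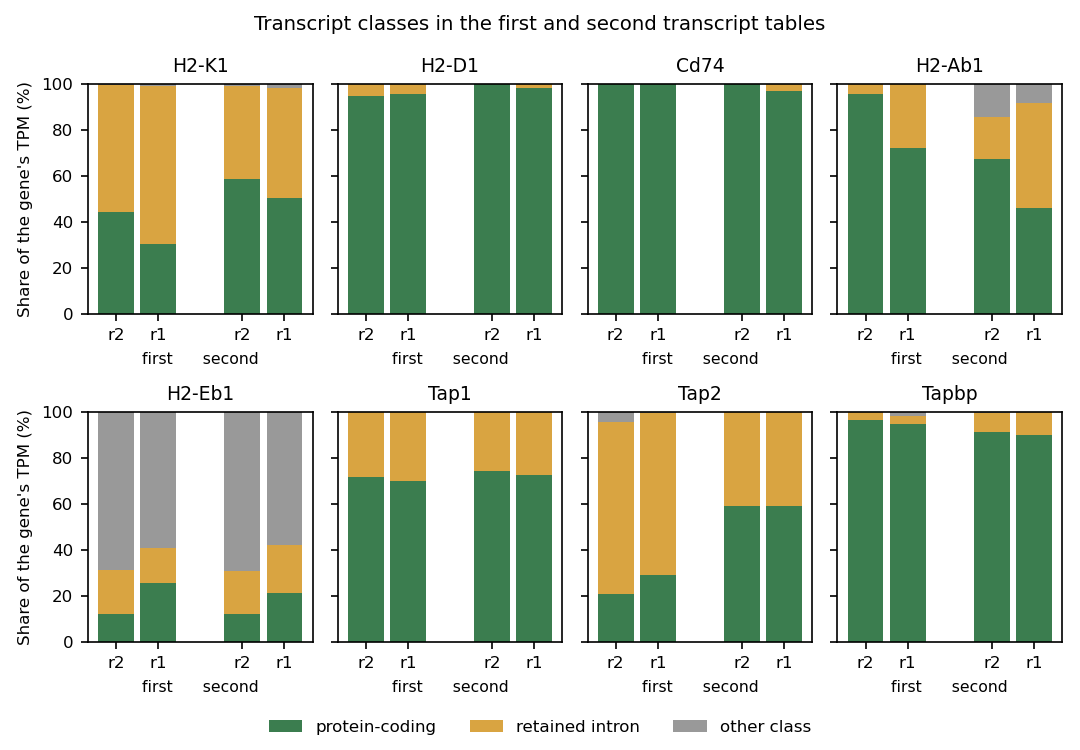
Share of a gene's TPM (percent, from 0 to 100) held by protein-coding, retained-intron and other transcripts, in replicate 2 (r2) and replicate 1 (r1), in the first and the second transcript tables. H2-D1, Cd74 and Tapbp are nearly all protein-coding, while H2-K1 and Tap2 have large retained-intron shares that are smaller in the second table.

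Gene levels were also compared between the tables. The median log2 of the second table over the gene table, with 1 TPM added, was 0.44 for members and 0.44 for all genes. On that scale, 0 of 31 members tested were over 2-fold higher and 0 over 2-fold lower in both libraries, while 5.05% of the 15301 genes tested were higher and 2.65% lower. Without the added 1 TPM, 4 of the 31 were over 2-fold higher in the second table in both libraries, namely H2-Ab1, H2-DMb1, H2-K2 and H2-Q7. This was counted for members only, so no share of all genes stands beside it. With 0.1 TPM added, 3 of the 31 members were higher, while 1251 of the 15301 genes were. H2-Ab1 had 13.3 and 9.39 TPM in the second table, against 5.80 and 4.41 TPM in the gene table. The class II A and E chains, B2m, Cd74, Tap1, Tap2 and the immunoproteasome subunits each share under 2% of their words with other genes. Words were read along the transcript strand only, so sharing with antisense transcripts was not counted. H2-Ke6, at 53.4 TPM in both libraries, shares 76.1% of its words with Gm20427, which overlaps it on the same strand, and its level is uncertain. Tapbp overlaps Zbtb22 by 3422 bases on the same strand (569 counts for Zbtb22 in replicate 2, against 884 in replicate 1). H2-T10 lies wholly within Gm7030 on the same strand (2 and 0 counts for Gm7030). Overlaps on opposite strands also touch B2m, which lies wholly within Patl2 (10 counts in replicate 2, against 1 in replicate 1), H2-DMa, which overlaps Brd2 by 3094 bases (3510 and 5741 counts for Brd2), and Tap1 and Psmb9, which overlap by 212 bases. Whether counting used strand is not given in the sources used here.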

How the data were processed

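Per the text deposited with each sample, the assembly was mm10 and the annotation GENCODE M21. An alignment to the transcriptome underlies the first transcript table and the gene table, whereas the second transcript table was made from read files with an index. Neither tools and versions nor the strand setting is given in the sources used here. Per the file headers, the authors' gene table holds expected counts and TPM, with a posterior SD of the count, the first transcript table adds each transcript's percent of its gene's TPM, and the second holds estimated counts and TPM.

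Expected counts were rounded to whole numbers and scaled with TMM (edgeR 4.0.16, R 4.3.3). A difference is log2 of replicate 2 over replicate 1 after adding a prior count of 0.5; a mean count of 20 was required, and mitochondrial genes were dropped. With 1 library a side, edgeR's quasi-likelihood test cannot be run. The exact conditional binomial test (SciPy 1.17.1), two-sided by doubling the smaller tail, compares the libraries, not conditions, with Benjamini-Hochberg adjustment over 16155 genes under 0.05. Folds have 95% Clopper-Pearson intervals, and like the floor of 3 counts they cover counting error only. Tables were compared as log2(TPM + 1), over genes of at least 1 TPM on average in either table. Ratios are of TPM within a library. Words of 31 bases were counted along the transcript strand only, over all GENCODE transcripts, so sharing with antisense transcripts was not counted. Alternatives were DESeq2 1.42.0 size factors, total-count and spike-in scaling, count minimums, pseudocounts, the second table and leaving out a replicate. Scripts were tested on simulated counts. Every gene chosen by the symbol rule is named, and those of at least 1 TPM are described. The members, lists and motifs were chosen with earlier results of these data known.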

Additional observations from a re-analysis of the deposited data

How the results depend on the processing

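Under total-count scaling, members higher in replicate 2 numbered 15, members over 2-fold higher 5, all genes higher and lower 2268 and 9416 (4611 and 3984 under TMM), and the members' median log2 difference was 0.28. Under spike-in scaling, all genes higher and lower numbered 2534 and 8529, and the members' median was 0.35. With a mean count of at least 50, members lower were 2, and over 2-fold higher and lower 5 and 1; with no minimum, 5 were over 2-fold lower. The members' median was 0.74 in the second transcript table, 0.10 on log2(TPM + 1) with 2 members over 2-fold higher, and 0.13 on log2(TPM + 0.1) with 5. Relative to the median gene on log2(TPM + 1), an alternative chosen after seeing the data, the median was 0.41, with 3 members over 2-fold higher and 0 lower. Other counts of differences between the libraries, and those under DESeq2 size factors, stayed within 1.5 times.

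Among members called under TMM or under the other scaling, direction reversed for Tapbp (-0.015) under total-count scaling. It also reversed for Tap2 (-0.29 and -0.22) and H2-T22 (-0.11 and -0.050) under total-count and spike-in scaling. Among members called under TMM, it reversed on log2(TPM + 1) and log2(TPM + 0.1) for H2-T22 (-0.11 and -0.12) and H2-DMb1 (-0.18 and -0.32). Called or not, members below 0 numbered 5 under TMM, 11 under total-count scaling, 8 under spike-in scaling and 12 on either TPM scale. Of 34 members, calls were lost without a change of direction in 6 under total-count and in 5 under spike-in scaling. In the second table the mean log2 ratios of H2-Aa to H2-Ab1 (-0.063), H2-Eb1 to H2-Ab1 (-0.42) and H2-DMa to summed H2-DMb (-0.15) reversed. Over protein-coding transcripts alone, Tap1 to Tap2 reversed in the first table (0.34), and without H2-Q10 so did B2m to summed heavy chains (0.013), both chosen after seeing the data. The causes were not tested.

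The mean summed level was 237 TPM for class I heavy chains and 68.9 TPM for class II with Cd74 in the second table. Leaving out each replicate, these sums ranged over 124 to 201 TPM and 38.4 to 49.2 TPM. Members over 2-fold higher in the second table were 3 of 31 with a pseudocount of 0.1, while all genes higher were 1251 of 15301. With no pseudocount they were 4, an alternative chosen after seeing the data and counted for members only. Leaving out replicate 1 gave 1 member and 1108 genes, and leaving out replicate 2 gave 0 members and 1231 genes. The main setting gave 0 members and 773 genes. No paired analysis was possible because the labels give 1 group. Depth limits the 9 members with counts too low to be tested and the 12 at 0.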

Other observations

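Genes of MHC-like proteins outside the H2 names went both ways. Of 5 with the counts to be tested, Fcgrt, the receptor that recycles antibodies, was higher in replicate 2, with 44.7 TPM in replicate 2, against 29.6 TPM in replicate 1 (log2 difference 1.04 under TMM). Cd1d1, which presents lipids, had 36.4 and 57.1 TPM and was lower in replicate 2 (-0.23). Mr1, which presents vitamin metabolites, had 3.79 and 7.19 TPM (-0.56), Hfe, a regulator of iron uptake, 8.45 and 13.0 TPM (-0.63), and Procr, the receptor of protein C, 4.19 and 13.8 TPM (-1.06), and each was lower in replicate 2. Fcgrt was also called higher under total-count and spike-in scaling. Whether these differences depart from those of the H2 genes was not tested.

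Costimulatory genes were at low level. Cd86 had 40 counts in replicate 2, against 36 in replicate 1, Cd40 had 16 and 31, and Cd80 had 5 and 13. Cd86 and Cd40 were not called, and Cd80 was too low to be tested. Endothelial markers had 2 higher, 2 lower and 2 not called of 6 under TMM and 1 higher and 5 lower under total-count scaling. Under total-count scaling 14% of all genes were called higher and 58.3% lower. Adipocyte markers were higher in replicate 2 in 6 of 6 under TMM (median log2 difference 0.64), where 28.5% of all genes were called higher.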
